A study of Mus musculus with 6 samples.

Results

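Camk2a, Bdnf and Nrgn are 3 transcripts tied to synaptic plasticity that the authors' deposited tables list as different between the striatum of HuD-KO mice and that of WT littermates. They were selected by name from those tables, which hold 1088 transcripts with 1031 gene symbols, each listed for a difference of over 2-fold on the same arrays that are described here. The paper also marks a p-value cut for this comparison, which favours transcripts with a small spread within the groups. The HuD-KO against WT values of the 3 transcripts were therefore used in choosing them, and they are given as a description with no test. Camk2a and Bdnf stand in the table of transcripts lower in HuD-KO, and Nrgn stands in the table of transcripts higher in HuD-KO.

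Striatal RNA of 3 adult HuD-KO mice, in which Elavl4 is disrupted on both chromosomes, was compared with that of 3 adult WT littermates. Elavl4 encodes HuD, a neuronal RNA-binding protein that recognizes AU-rich elements in messenger RNAs. The animals carried no other allele or treatment that the labels name, and the disruption is not restricted to the striatum or to 1 cell type. Each RNA was hybridized to its own 1-colour array of long non-coding and messenger RNAs, after removal of ribosomal RNA and labelling with both oligo(dT) and random primers. The labels and methods do not say that any array pooled animals.

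Camk2a encodes the alpha subunit of calcium/calmodulin-dependent protein kinase II, the major kinase of the postsynaptic density. Nrgn encodes neurogranin, a postsynaptic protein that holds calmodulin until calcium rises, and both transcripts are carried into dendrites. Bdnf encodes brain-derived neurotrophic factor, a secreted ligand of the TrkB receptor, and it is transcribed from several alternative first exons. Most BDNF protein of the striatum is supplied by axons of cortical neurons, while its transcript is scarce in striatal neurons.

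Each of the 3 genes was read by 1 named probe of 60 bases, and these probes sampled different parts of their transcripts. The Nrgn probe (NM_022029, chromosome 9, 37544493 to 37552745, minus strand) lay between 37546037 and 37546174, beginning 6571 bases after the start of the gene on its strand. RefSeq has 1 transcript of Nrgn. The Bdnf probe (NM_001048139, chromosome 2, 109675897 to 109727043, plus strand) lay between 109676314 and 109676395, 417 bases after the listed start. These coordinates are those of the deposited tables, which name no build. The listed ends of Camk2a, Bdnf and Nrgn equal the ends of these genes in GRCm38.p6, while the listed starts of the transcripts of Camk2a and Bdnf differ from the gene starts there. The share of G and C was 45% for the Camk2a probe, 45% for the Bdnf probe and 60% for the Nrgn probe, against a median of 45% over the 1088 listed probes. The sequences of the probes for Nrgn and Bdnf are shown because they determine which RNA was counted, the former in full and the latter by its first 30 bases, on the strand of the transcript.
Nrgn probe: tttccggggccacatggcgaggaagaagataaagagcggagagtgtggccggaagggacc
Bdnf probe, first 30 bases: ttggtatactgggttaactttgggaaatgc

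The Camk2a probe (NM_177407, chromosome 18, 60925632 to 60988152, plus strand) lay in the last 174 bases of the gene (60987979 to 60988152), and the table gives NM_009792 as another transcript that it reads. Its sequence is not shown.

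The place of the Bdnf probe limits which Bdnf transcripts it can read. RefSeq holds 12 transcripts of Bdnf, with 7 start sites among the start windows of GRCm38.p6. Of these 7 starts, 6 lie after the probe window, from 718 to 46607 bases beyond its first base, and 1 lies before it. That 1 start is at -1197 bases from the listed start, so the listed start itself is not among the 7. Whether transcripts from that earlier start contain the probed bases was not examined. Transcripts that begin at those 6 later starts do not contain the probed bases. No other named probe read Bdnf, so the level of Bdnf RNA from the later first exons was not analysed here.

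**Figure D1:**
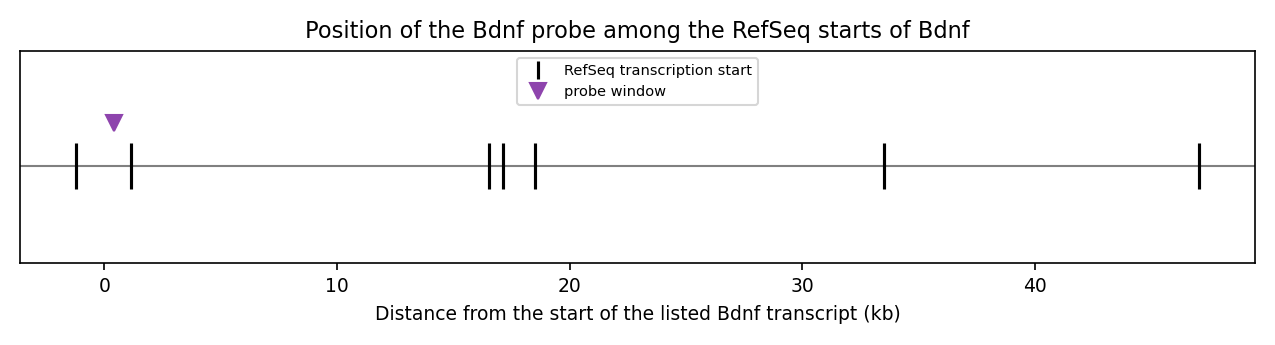
Position of the Bdnf probe window (triangle) and of the 7 RefSeq start sites of Bdnf (vertical marks), on an axis of distance in kb from the start of the listed transcript. The triangle lies 417 bases after the listed start, and 6 of the 7 marks lie to its right. The other mark is at -1197 bases, and no mark lies at the listed start itself.

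As a check of the genotype labels, the signal of the Elavl4 probe (NM_001163399) was read first, at 11.3, 8.12 and 8.81 in the HuD-KO animals against 233, 181 and 275 in WT. It was well above background on 0 of 3 HuD-KO arrays and on 3 of 3 WT arrays, and at least 15.5-fold lower in HuD-KO. "Well above background" is the mark of the scanner software, and a group without it on all its arrays has only a bound. The bound takes the dimmest probe with that mark on each array as its floor, and holds for that floor only. The 75th percentile of signal lay between 535 and 615 on the HuD-KO arrays and between 446 and 496 on the WT arrays, so that HuD-KO had the brighter arrays. Levels below are log2 of the processed signal minus that percentile of the same array.

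Camk2a was lower in HuD-KO. Its processed signal was 12288, 15261 and 12899 intensity units in the 3 HuD-KO mice, against 31663, 33836 and 28164 in the 3 WT mice. All HuD-KO arrays lay below all WT arrays, and every array was well above background. The scaled level was 4.57 ± 0.21 in HuD-KO and 6.05 ± 0.12 in WT (log2, SD, n = 3). The difference was -1.48 on the log2 scale (SE 0.14), or 2.80-fold lower in HuD-KO. Before scaling, the mean signal was 2.32-fold lower, although the brighter arrays were those of HuD-KO. The gap between the highest HuD-KO array and the lowest WT array was 1.18 on the log2 scale.

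Bdnf was a dim transcript that was detected in WT and not in HuD-KO. Its processed signal was 9.16, 12.3 and 16.7 in the HuD-KO mice, against 30.3, 23.4 and 24.5 in the WT mice. The 2 groups did not overlap. The probe was well above background on 3 of 3 WT arrays and on 0 of 3 HuD-KO arrays, where the dimmest probes with that mark had signals of 16.8, 18.8 and 17.4. HuD-KO replicate 3, at 16.7, came close to that limit. The scaled level was -5.52 ± 0.33 in HuD-KO and -4.18 ± 0.14 in WT (log2, SD, n = 3). With each HuD-KO array raised to the lowest signal well above background of any probe on it, Bdnf was lower in HuD-KO by at least 1.77-fold. This bound holds for that floor only, and the limit for the Bdnf spot itself was not examined. Normexp background correction subtracts the local background of each spot, fits 1 model per array and here adds an offset of 50. An offset of this size shrinks the ratios of dim probes. With normexp no HuD-KO array had to be raised, and the plain difference, which is no bound, was 1.39-fold. A signal this close to background does not show that Bdnf RNA was absent in HuD-KO.

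Nrgn was higher in HuD-KO, in the opposite direction to Camk2a and Bdnf. Its processed signal was 1985, 1585 and 2144 intensity units in the HuD-KO mice, against 464, 510 and 337 in the WT mice. Every HuD-KO array lay above every WT array, with a gap of 1.40 on the log2 scale between the nearest arrays of the 2 groups. The scaled level was 1.74 ± 0.19 in HuD-KO and -0.12 ± 0.27 in WT (log2, SD, n = 3). The difference was 1.87 on the log2 scale (SE 0.19), or 3.64-fold higher in HuD-KO, and 4.36-fold higher before scaling. The 2 calmodulin-linked transcripts thus differed between the genotypes in opposite directions on the same 6 arrays.

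**Figure D2:**
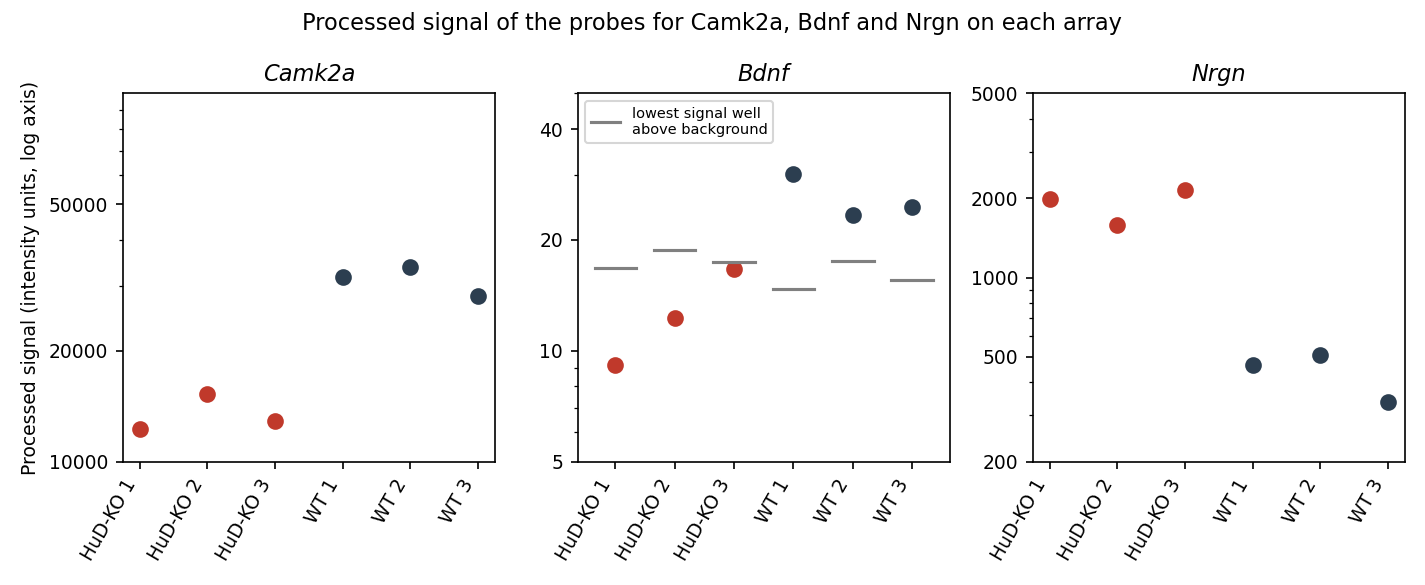
Processed signal of the probes for Camk2a, Bdnf and Nrgn (intensity units, log axis, with a separate range for each gene) on each of the 3 HuD-KO arrays (red) and 3 WT arrays (dark). The grey lines in the Bdnf panel mark the lowest signal well above background on each array, and the 3 HuD-KO points lie below them, between 9.16 and 16.7.

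For Camk2a and Nrgn, the differences within the HuD-KO group were small beside those between the groups. The fold and p-value cuts of the lists favour this, so nothing is read from it. HuD-KO replicate 2 had the highest Camk2a level of its group (4.80 against 4.52 and 4.39) and the lowest Nrgn level (1.53 against 1.89 and 1.80). The Bdnf level of the HuD-KO arrays ran from -5.87 to -5.21, a wide range beside its nearest gap to WT of 0.89. Among the WT arrays, replicate 3 had the lowest level of both Camk2a (5.98) and Nrgn (-0.41). WT replicate 2 had the highest level of both (6.19 for Camk2a and 0.14 for Nrgn). With 3 arrays a group, no relation between the genes across arrays was computed.

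The same measures over all 47857 tested probes give the background against which these values stand. Over 2-fold lower levels in HuD-KO were found for 4.63% of the tested probes, Camk2a among them and Bdnf only by values that are not well above background, and over 2-fold higher levels for 1.77%, Nrgn among them. Groups that did not overlap, with HuD-KO lower, were found for 22.5% of the probes, and with HuD-KO higher for 27.3%. With limma and an adjusted p under 0.05, 6889 probes (14.4%) were lower and 7651 (16.0%) were higher in HuD-KO, against 8820 and 6502 with normexp. Since Camk2a, Bdnf and Nrgn were listed for this same contrast, nothing is read from their being among these probes. The median difference over all tested probes was 0.04 on the log2 scale.

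The position of the arrays on the slide was tied to the groups. All 3 HuD-KO arrays and WT replicate 1 lay in row 1 of the slide, and WT replicates 2 and 3 lay in row 2. Within row 1, where 1 WT array remains, the difference of Camk2a was -1.42 and that of Nrgn 1.84 on the log2 scale. The measured Bdnf difference within row 1 was -1.48, with HuD-KO still not well above background. In a limma model with the row as a block, 144 probes were lower and 139 higher by the same threshold, and none of the 3 genes was among them. The differences within the row share the HuD-KO arrays and WT replicate 1 with those over all arrays, so the 2 sets are not independent. The part of the row in the differences of the 3 genes was not tested.

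The place of the spots on the arrays was also examined. Tested probes within 10 rows and columns of the Camk2a spot had a median HuD-KO minus WT difference of 0.10 on the log2 scale (213 probes). Around the Bdnf spot it was -0.05 (329 probes), and around the Nrgn spot 0.09 (336 probes). The processed signal had already been spatially detrended, which favours small local medians. They do not bear on a fault of a single spot, which was not tested. On no array did the median deviation of the neighbours of these spots from the mean of their group exceed 0.12 in size. Single neighbours may deviate more.

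**Figure D3:**
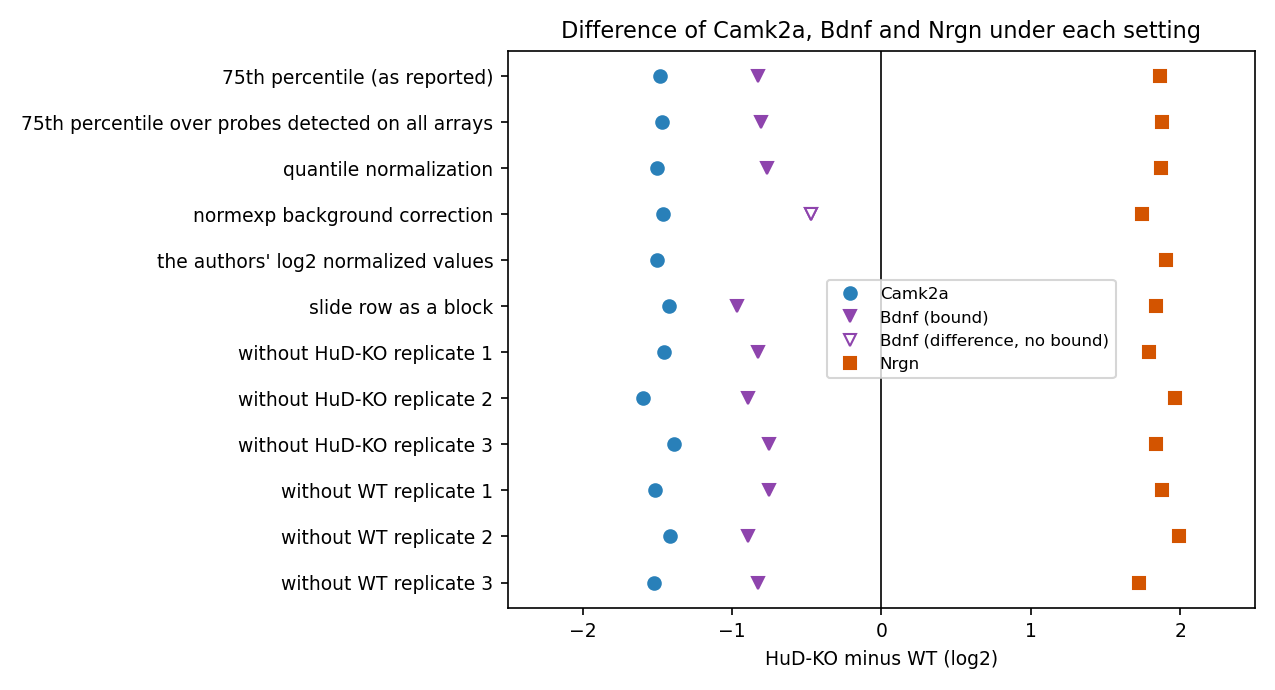
HuD-KO minus WT difference (log2) of Camk2a (circles), Bdnf (triangles, a bound) and Nrgn (squares) under each scaling, background correction and omission of 1 array. Camk2a stays between 2.63-fold and 3.03-fold lower and Nrgn between 3.30-fold and 3.98-fold higher, while Bdnf lies nearest to 0 with normexp, where the open triangle is the plain difference and no bound.

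To place the 3 transcripts among related genes, 81 genes of CaMKII and calmodulin signalling, neurotrophins, glutamate receptors and their scaffolds, and activity-regulated genes were looked up. Only listed probes carry a name, so a gene could be found only where the authors had listed it as different, and an unnamed gene is not an unchanged one. Of the 81 genes, 8 had a named probe, 6 of them lower and 2 higher in HuD-KO. The size of these differences was fixed in part by the 2-fold threshold and the p-value cut of the lists. The same holds for the groups that did not overlap in all 8. All 8 were among the 14.4% lower and 16.0% higher probes by limma, which their choice favoured. When the slide row was a block, 0 of the 8 passed, where 0.301% of all probes were lower and 0.290% higher. Within row 1 the log2 differences of the 5 other genes were -0.97 for Pcsk1, -0.99 for Homer3, -1.14 for Shank2, -1.06 for Nr4a3 and 1.43 for Gria4. The genes with no named probe, which include the subunit genes Camk2b, Camk2d and Camk2g, the calmodulin genes, the TrkB gene Ntrk2 and Homer1, were not analysed here.

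Among the 23 genes of CaMKII and calmodulin signalling, Camk2a and Nrgn were the 2 with a named probe. Among the 12 neurotrophin genes, Bdnf was accompanied by Pcsk1 (NM_013628), which encodes a prohormone convertase of the regulated secretory pathway. The Pcsk1 signal was 349, 345 and 407 in HuD-KO and 631, 662 and 601 in WT, a difference of -1.06 on the log2 scale (SE 0.05), or 2.08-fold lower. Pcsk1 and Nr4a3 lay nearest to the 2-fold threshold of the lists, at 2.08-fold and 2.09-fold, and genes just outside it carry no name.

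Of 30 glutamate receptor and scaffold genes, 3 had a named probe. Homer3 (NM_001146153), a scaffold that links metabotropic glutamate receptors to intracellular calcium stores, had signals of 42.5, 51.4 and 66.4 in HuD-KO and 91.5, 110 and 86.1 in WT (log2 difference -1.13, SE 0.17). Shank2, a scaffold of the postsynaptic density, was read through the transcript ENSMUST00000097929, whose probe window begins 30 bases after the listed start. Its signals were 45.8, 58.7 and 57.4 in HuD-KO and 104, 143 and 89.4 in WT (log2 difference -1.30, SE 0.22). Gria4 (NM_001113181), an AMPA receptor subunit, was higher with Nrgn, at 3480, 3443 and 4539 in HuD-KO against 1232, 950.3 and 1267 in WT (log2 difference 1.46, SE 0.15).

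Of 16 activity-regulated genes, Nr4a3 (NM_015743), an orphan nuclear receptor induced by neuronal activity, was the 1 with a named probe. Its signals were 22.9, 24.7 and 33.9 in HuD-KO and 49.2, 55.2 and 36.6 in WT, so that the nearest arrays of the 2 groups lay close together (log2 difference -1.06, SE 0.19). Bdnf is itself induced by neuronal activity. The dim genes moved towards 0 with normexp, whose offset shrinks dim ratios, to -0.53 for Nr4a3, -0.69 for Homer3 and -0.83 for Shank2. Camk2a (-1.46), Gria4 (1.44) and Nrgn (1.75) stayed close to their values above.

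**Figure D4:**
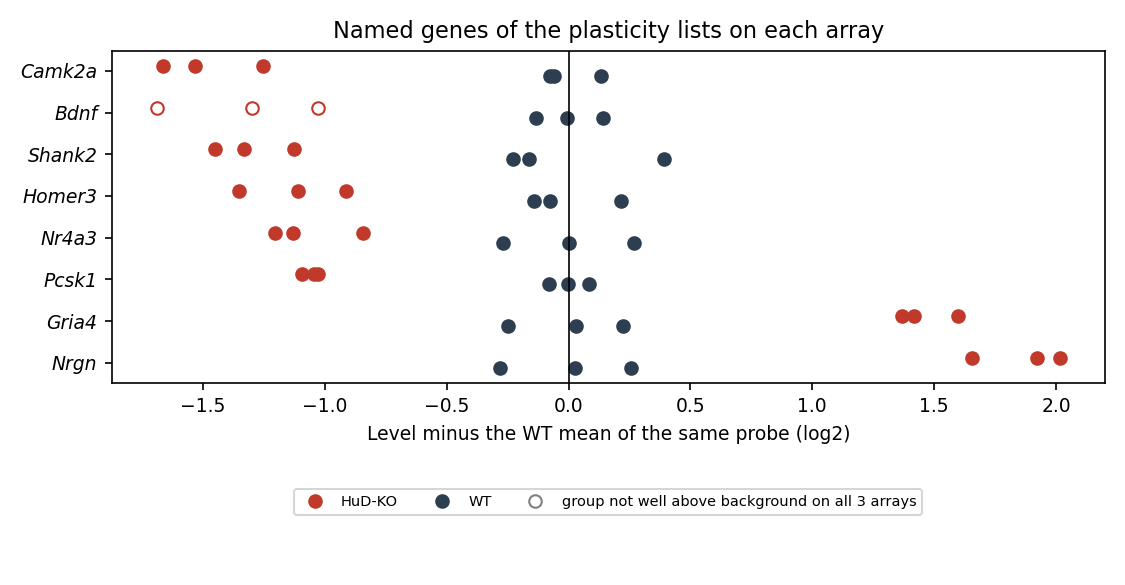
Level of the 8 named plasticity genes on each of the 3 HuD-KO arrays (red) and 3 WT arrays (dark), minus the WT mean of the same probe (log2). Open circles mark a group that was not well above background on all 3 arrays, which is the case for Bdnf in HuD-KO. Camk2a, Bdnf, Shank2, Homer3, Nr4a3 and Pcsk1 lie to the left of the WT arrays and Gria4 and Nrgn to the right.

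The named genes whose profiles over the 6 arrays were most like those of Camk2a and Nrgn were found by the Euclidean distance of their log2 levels after subtraction of the WT mean, among 845 named genes well above background on all arrays. For Camk2a these were Macrod2 (distance 0.22), Lrrc51 (0.22) and Akap13 (0.26). For Nrgn they were Nxph3 (0.27), Ssb (0.33) and BC061194 (0.35). Nxph3, which encodes a neurexophilin, a secreted ligand of alpha-neurexins, had a level of 5.23 ± 0.06 in HuD-KO and 3.33 ± 0.36 in WT (SD, n = 3). Its order among the WT arrays, highest on replicate 2 and lowest on replicate 3 as for Nrgn, was part of the distance that chose it. Nothing further is read from that order. Bdnf was left out of this search because its HuD-KO values are not well above background.

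The tissue was bulk striatum, in which fewer cells of a type and less RNA per cell cannot be told apart, and so markers of the cell types it could hold were examined beside the 3 transcripts. Of 13 markers of excitatory neurons of the cortex, Neurod1 and Neurod6 are given here as those with a named probe, and both were higher in HuD-KO, as Nrgn was and Camk2a was not. Their summed level, in multiples of the 75th percentile of the array, ran from 53.9 to 72.7 in HuD-KO and from 13.9 to 28.8 in WT. Neurod1 differed by 1.40 and Neurod6 by 1.69 on the log2 scale. Among the WT arrays both were lowest on replicate 2 (0.24 and 3.67) and highest on replicate 3 (1.30 and 4.72). Nrgn and Camk2a were highest on replicate 2 and lowest on replicate 3. Nothing is read from these orders, which rest on 3 WT arrays. The part of cortical RNA in the values of Camk2a, Bdnf and Nrgn was not tested. None of the 15 markers of medium spiny neurons, the principal neurons of the striatum, had a named probe, nor had any of the 6 markers of astrocytes or the 5 of microglia, so the labelled tissue could not be checked against its defining markers.

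Other marker lists had few named members. On the list of 7 markers for interneurons, Gad2, an enzyme of GABA synthesis, had a log2 difference of -0.97 in HuD-KO. Gad2 is not particular to interneurons, since medium spiny neurons also make GABA. Th, well above background in HuD-KO and in no WT array, was 1.06-fold higher in HuD-KO by a bound with that floor. Its direction turned with normexp (-0.03 on the log2 scale), so the bound did not hold there. Mbp, the 1 named of 6 markers of oligodendrocytes, had a log2 difference of -1.15 on the brightest of its 5 named probes, and of -1.35 to -1.09 on the others. Kcnj13 and Clic6, 2 of 8 markers of choroid plexus and ependyma, had log2 differences of -2.95 and -1.46. The genes of the Y chromosome Uty, Eif2s3y, Ddx3y and Kdm5d were higher in HuD-KO on every array, Uty by 5.49 on the log2 scale. Ddx3y and Kdm5d were well above background on 3 of 3 HuD-KO arrays and on 0 of 3 WT arrays, while Uty and Eif2s3y had that mark in both groups. The 2 groups thus also differed in these sex-linked transcripts, and the labels do not give the sex of the animals. Sex and genotype cannot be told apart for Camk2a, Bdnf and Nrgn on these arrays.

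**Figure D5:**
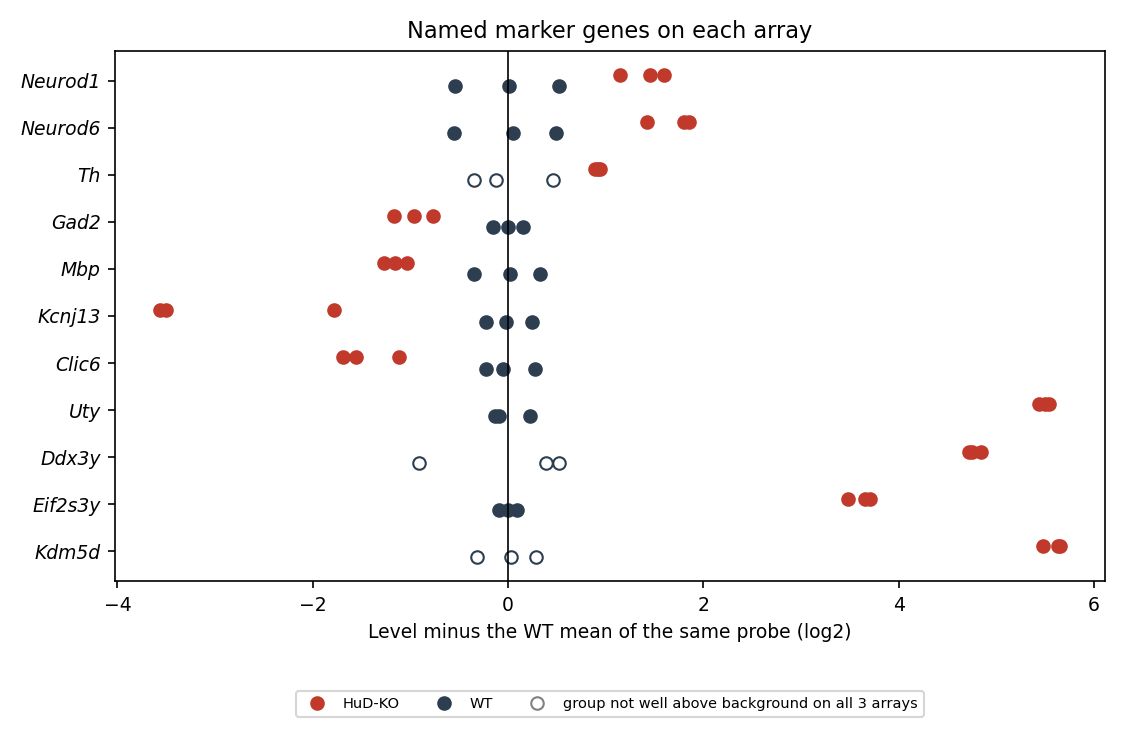
Level of the 11 named marker genes on each array (HuD-KO red, WT dark), minus the WT mean of the same probe (log2), with open circles for a group that was not well above background on all 3 arrays. From the top these are Neurod1 and Neurod6 (cortex), Th and Gad2 (the list for interneurons), Mbp (oligodendrocytes), Kcnj13 and Clic6 (choroid plexus and ependyma) and 4 genes of the Y chromosome. The Th difference turned with normexp, and Uty lies 5.49 to the right.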

How the data were processed

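RNA of the striatum of 3 HuD-KO and 3 WT mice was measured on 1-colour arrays, 1 per sample. The scanner files deposited by the authors hold the intensity of each spot, which Feature Extraction 11.0.1.1 had background-subtracted and spatially detrended, with no normalization between arrays. They also hold other marks per spot, such as well above background, as deposited. The authors' deposited tables hold a log2 normalized value per array, by a method not given in the sources used here, and p-values, FDR and fold changes of their own comparison, which were not used.

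Levels were log2 of the processed signal minus the array's own 75th percentile, which was taken over target spots without 15 negative probes. Probes well above background on all 3 arrays of at least 1 group were tested (47857 of 60915) with limma 3.58.1 in R 4.3.3 (two-sided, Benjamini-Hochberg over all tested probes). This fit served the counts over all probes and was tested on simulated data. Python 3.11.15 with scipy 1.17.1, numpy 2.4.6, pandas 2.3.3 and matplotlib 3.10.9 served for tables and figures. For a bound, each array of the dim group was given the probe's own signal or the lowest signal well above background, whichever was higher, and the mean was set against that of the other group. Where replicates are named, they are separate samples, and their spread may be technical in part. Precision was limited by 3 arrays per group, for which an exact permutation test cannot give a p under 0.1.

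The genes named were Camk2a, Bdnf and Nrgn, Elavl4, every gene of the plasticity and marker lists with a named probe, and the 3 named genes with the most similar profile. These genes and lists were chosen with earlier results of these data known. Of 1061 listed transcripts matched by accession to GRCm38.p6, 47.2% had the same end as their gene. The sequence of the Camk2a probe is not reported here. A gene of the marker lists is not reported here either. Alternatives were quantile normalization, a percentile taken over probes detected on all arrays, normexp with an offset of 50 on the median signals, the authors' log2 values, the slide row and the replicate number as blocks, other filters on dim probes, the methods' t-test and leaving out each array.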

Additional observations from a re-analysis of the deposited data

How the results depend on the processing

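Camk2a and Nrgn kept their direction under all 11 alternatives and moved by less than 1 SD. Their listing on these arrays favoured this outcome. The authors' log2 values are those of the lists, and leaving out 1 array cannot reverse groups that do not overlap. With 1 array left out, the Camk2a difference ran from -1.60 to -1.39, that of Nrgn from 1.72 to 1.99 and the Bdnf bound from -0.89 to -0.75 on the log2 scale. With normexp the rule for Bdnf gave the plain difference of -0.47, which is no bound, and no bound could be computed from the authors' log2 values. The counts of probes at a limma adjusted p under 0.05 moved more. With the slide row as a block they were 144 lower and 139 higher, from a comparison within a row that rests on 1 WT array. With the replicate number as a block (replicate block) they were 3533 lower (7.38%) and 2995 higher (6.26%). Samples that share a number did not deviate together (correlations of -0.03, -0.06 and -0.13), so the numbers do not pair them. The 8 plasticity genes passed with this block too, which their listing for this same contrast favoured. With 1 array left out, 3607 to 6579 probes were lower and 3440 to 7039 higher. The count of lower probes was 3859, 4578 and 4070 without HuD-KO replicate 1, 2 and 3 and 3607 without WT replicate 1, and that of higher probes was 3440, 4376, 3923 and 3459. The causes were not tested. The dim signal of Bdnf limits its difference to a bound.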
